A study of Mus musculus with 7 samples.

Results

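Collagen VI and the collagens that sit on or beside collagen fibrils were described here through 7 genes: Col6a1, Col6a2 and Col6a3, which encode the α1, α2 and α3 chains of collagen VI, and Col12a1, Col14a1, Col15a1 and Col16a1. The genes were listed by name, with no threshold on a measured value, though with earlier results of these data known. All 7 were among the 56854 gene identifiers that the count files of both genotypes held, and all 7 were among the 17791 genes that passed the filter on low counts and were tested. Each of the 7 libraries was made from the whole shoulder joint of a different mouse, collected when 2 weeks had passed since an operation on the left shoulder in which the supraspinatus tendon was repaired. The supraspinatus is a muscle of the rotator cuff, which keeps the head of the humerus in its socket. The control group was wild type (n = 3), and the other group was Tnc-/- (n = 4), mice lacking Tenascin C, a large glycoprotein of the extracellular matrix that is made during tendon injury. Both groups had the repair, so no uninjured joint entered the comparison, and the labels used here give neither the ages of the mice nor the cells of the joint that each RNA came from. The comparison asks whether RNA of these collagens differed between repaired joints with and without Tenascin C.

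Collagen VI is assembled inside the cell from 1 α1, 1 α2 and 1 α3 chain, and its tetramers join outside the cell into beaded microfilaments that surround cells and link them to the fibrillar matrix. Collagens XII, XIV and XVI are fibril-associated collagens with interrupted triple helices (FACITs): they do not form the thick fibrils of tendon themselves, but lie on fibril surfaces or near basement membranes and connect fibrils with proteoglycans and other matrix proteins. Collagen XV, encoded by Col15a1, is a multiplexin rather than a FACIT, a proteoglycan of the zone where basement membranes meet fibrils around muscle fibres, capillaries and nerves. In tendon, collagens VI, XII and XIV are known for their part in the pericellular matrix and in the control of fibril growth.

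The libraries differed in ways that bear on every value. Gene counts ran from 13464057 to 18503833 per wild-type library and from 19250322 to 28191101 per Tnc-/- library. The files of the genotypes differed in the identifiers listed, with 126 for wild type and 87 for Tnc-/- that the other lacked. The reason is not given in the sources used here. A difference in how the files were made cannot be told apart from genotype. The targeted gene, Tnc, had 8137, 4394 and 5386 counts in wild type and 902, 698, 712 and 1051 counts in Tnc-/-. Its log2 fold change was -3.08 (SE 0.22, adjusted p = 2.8e-04 in edgeR's quasi-likelihood test), with every Tnc-/- library below every wild-type library. Wild-type libraries 2 and 3 stood apart from library 1: the summed level of 2007 olfactory and vomeronasal receptor genes, which a joint should hardly express, was 1557 and 1108 CPM (reads per M reads of the library) in them, 88.8 CPM in wild-type library 1 and 33.3 to 41.5 CPM in Tnc-/-. Levels below are in CPM of the library size scaled by the trimmed mean of M values (TMM), and fold changes are Tnc-/- over wild type on the log2 scale. With library totals in place of TMM the median fold change of all tested genes moved from near 0 to -0.24, so all values are relative to that choice.

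None of the 7 collagens passed the test between genotypes. In edgeR's quasi-likelihood test 0 of 7 had an adjusted p under 0.05, against 29.0% of all tested genes called in either direction (10.3% higher and 18.7% lower), and 1 of 7, Col16a1, had an unadjusted p under 0.05. DESeq2 with Bonferroni adjustment and limma voom, which called 6.5 and 5.64% of all genes, also called 0 of 7, whereas DESeq2 with Benjamini-Hochberg adjustment called 1, Col16a1. The genotypes overlapped in the level of every member: 0 of 7 were fully apart, against 35.1% of tested genes. The median log2 fold change of the 7 was 0.27, beside -0.0009 over all tested genes, and 5 of 7 values were above 0. In whole-joint RNA, a difference in the number of cells of a type and a difference in RNA per cell cannot be told apart.

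High and low libraries were largely shared by the 7 genes. Wild-type libraries 1 to 3 had 6262, 4261 and 5115 CPM of the 7 genes in sum, and Tnc-/- libraries 1 to 4 had 4999, 5139, 5601 and 9396 CPM. Tnc-/- library 4 was the highest of all 7 libraries for each of the 7 genes, and wild-type library 1 was the highest wild-type library for each of them. The level in Tnc-/- library 4 was 1.55 (Col14a1) to 1.89 (Col16a1) times the mean of the other Tnc-/- libraries. For Col1a1, the α1 chain of the main fibril collagen of tendon, the same ratio was 1.70. The coefficient of variation over libraries was 16.1 to 33.1% in wild type and 24.9 to 37.4% in Tnc-/-, and for each member it was larger in Tnc-/-.

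**Figure D1:**
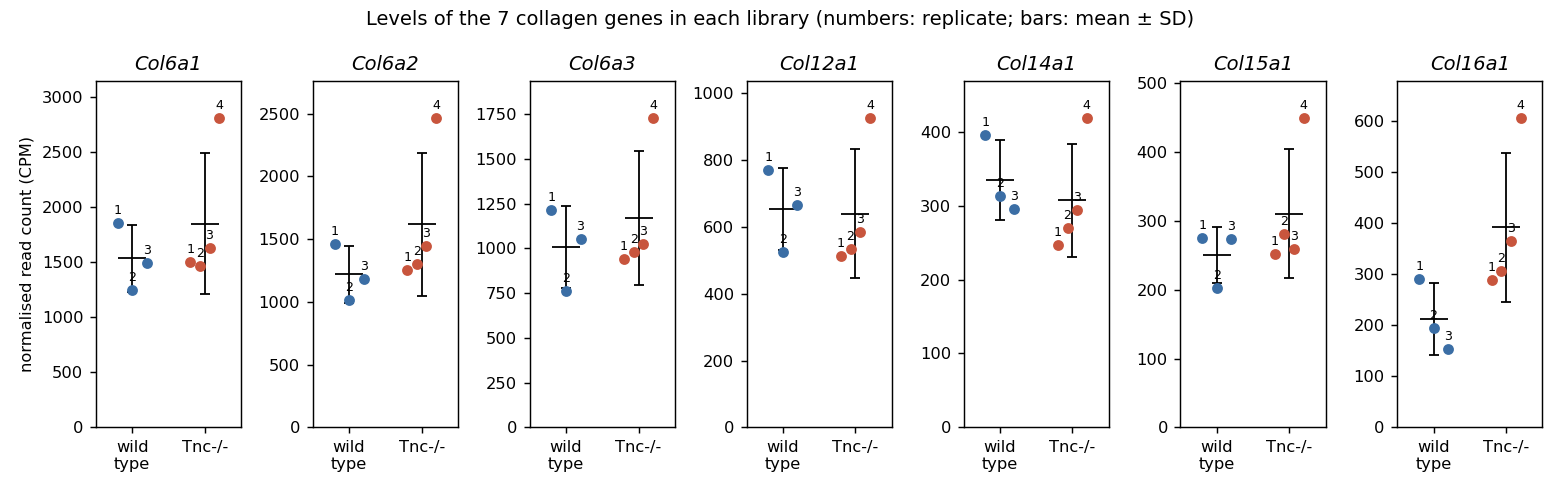
Normalised level (CPM, each panel on its own linear axis from 0) of each collagen gene in every library, numbered by replicate, with wild type in blue (n = 3), Tnc-/- in red (n = 4) and bars for the mean ± SD. The groups overlap for all 7 genes, and Tnc-/- library 4 is the highest point of each gene.

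The collagen VI chains are described first, beside the stretch around the start site of each gene. Promoter entries of RefSeq (build GRCm38.p6, 250 bases before to 50 after the annotated start) matched 5 of the 7 members; Col12a1 and Col14a1 had none. Capitals mark matches to the motifs searched on both strands: AP-1 (TGACTCA or TGAGTCA, found in 5.2% of 32851 promoter entries of this length), the GC box (GGGCGG or CCGCCC, 35.7%) and the TATA box (TATAAA or TTTATA, 13.6%).
Col6a1, chr10:76725995-76726294, minus strand: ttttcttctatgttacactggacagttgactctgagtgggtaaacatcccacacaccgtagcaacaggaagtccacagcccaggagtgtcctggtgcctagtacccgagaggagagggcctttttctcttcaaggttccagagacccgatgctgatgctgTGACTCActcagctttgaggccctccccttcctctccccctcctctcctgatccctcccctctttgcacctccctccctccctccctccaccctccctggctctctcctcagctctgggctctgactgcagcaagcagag
Col6a2, chr10:76623355-76623654, minus strand: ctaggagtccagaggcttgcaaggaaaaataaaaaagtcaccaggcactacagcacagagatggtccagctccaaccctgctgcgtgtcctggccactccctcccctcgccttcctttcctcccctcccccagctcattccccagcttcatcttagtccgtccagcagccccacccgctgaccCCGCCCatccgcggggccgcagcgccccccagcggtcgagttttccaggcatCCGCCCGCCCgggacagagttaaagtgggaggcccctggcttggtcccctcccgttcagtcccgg
Col6a3, chr1:90843922-90844221, minus strand: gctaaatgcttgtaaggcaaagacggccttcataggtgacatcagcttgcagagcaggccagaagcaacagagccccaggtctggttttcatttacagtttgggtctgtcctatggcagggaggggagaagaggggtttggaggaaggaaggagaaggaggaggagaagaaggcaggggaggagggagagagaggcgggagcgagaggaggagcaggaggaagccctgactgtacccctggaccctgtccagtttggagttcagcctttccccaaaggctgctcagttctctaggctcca
The Col6a1 window held 1 AP-1 match, whose first base lay 90 bases before the start. The Col6a2 window, the first of 2 entries for this gene, held 3 GC boxes, 67, 15 and 11 bases before the start, of which the last pair overlaps. The other entry, not printed, held 1 GC box, 175 bases before its own start. None of the 3 motifs was found in the Col6a3 window, so the 3 windows shared no match, and a match is a description of the letters only.

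Col6a1 (ENSMUSG00000001119), the α1 chain, was measured at 1856, 1249 and 1492 CPM in the wild-type libraries, in order of their numbers, and at 1502, 1462, 1626 and 2805 CPM in the Tnc-/- libraries. Of the Tnc-/- libraries, 2 lay above the wild-type mean and all but library 4 lay within the wild-type range. The wild-type mean was 1532 ± 306 CPM (SD, n = 3) and the Tnc-/- mean 1849 ± 642 CPM (SD, n = 4), which gave a log2 fold change of 0.27 (SE 0.28, adjusted p = 0.495 in edgeR). Without Tnc-/- library 4 the fold change was -0.005.

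Col6a2 (ENSMUSG00000020241), the α2 chain, had 1460.0, 1015 and 1184 CPM in wild type and 1255, 1305, 1445 and 2465 CPM in Tnc-/-. All 4 Tnc-/- libraries lay above the wild-type mean, and 3 of them below wild-type library 1. The means were 1220.0 ± 225 and 1618 ± 571 CPM, a log2 fold change of 0.41 (SE 0.28, adjusted p = 0.296 in edgeR). It was called only without wild-type library 1 among the settings tried, at a fold change of 0.65 (adjusted p = 0.0455), a fit in which 64.2% of all tested genes were called.

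Col6a3 (ENSMUSG00000048126), the long α3 chain whose C-terminal end is released as the peptide endotrophin, had 1215, 763 and 1052 CPM in wild type and 942, 980.1, 1025 and 1728 CPM in Tnc-/-. Here 2 Tnc-/- libraries lay above the wild-type mean, and all but library 4 lay inside the wild-type range. The means were 1010.0 ± 229 and 1169 ± 374 CPM, a log2 fold change of 0.21 (SE 0.27, adjusted p = 0.589 in edgeR). The value turned to -0.027 with library totals and to -0.043 without Tnc-/- library 4.

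Col12a1 (ENSMUSG00000032332), the FACIT of tendon sheaths and dense connective tissue that forms bridges between fibrils, had 770.2, 525 and 665 CPM in wild type and 514, 534, 586 and 926 CPM in Tnc-/-. Only Tnc-/- library 4 lay above the wild-type mean, and Tnc-/- library 1 was the lowest of all 7. The means were 653 ± 123 and 640.1 ± 193 CPM, a log2 fold change of -0.030 (SE 0.25, adjusted p = 0.940 in edgeR). Its sign depended on the setting: it was 0.045 with no filter on low counts and 0.20 without wild-type library 1.

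Col14a1 (ENSMUSG00000022371), the FACIT that binds decorin on fibrils and is best known from early tendon fibril growth, had 396, 312 and 295 CPM in wild type and 247, 270.2, 295 and 418 CPM in Tnc-/-. Tnc-/- library 4 was the highest and Tnc-/- libraries 1 to 3 were the lowest of the 7, with library 3 just under wild-type library 3. The means were 335 ± 53.9 and 308 ± 76.4 CPM, a log2 fold change of -0.12 (SE 0.21, adjusted p = 0.693 in edgeR). Without wild-type library 1 it was 0.11.

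Col15a1 (ENSMUSG00000028339), the multiplexin of the basement membrane zone, had 275, 203 and 273 CPM in wild type and 252, 281, 260 and 449 CPM in Tnc-/-. All 4 Tnc-/- libraries lay above the wild-type mean, although 2 of them lay below wild-type libraries 1 and 3. The means were 250.6 ± 41.2 and 310.4 ± 93.4 CPM, a log2 fold change of 0.31 (SE 0.24, adjusted p = 0.352 in edgeR). An exon of Col15a1 overlaps Gm12426 on the opposite strand, and whether the counting used strand is not given in the sources used here. Its reads and those of the partner may therefore not be separable.

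Col16a1 (ENSMUSG00000040690), a FACIT of fibril surfaces and of the junction between skin layers, had the largest difference of the 7. Its window is shown because it held more GC-rich sequence than the other matched members, with 74.3% G or C against 52.3 to 64.3% in the first entries of the other 4, and GC boxes 159 bases before and 5 bases after the start. 
Col16a1, chr4:130047590-130047889, plus strand: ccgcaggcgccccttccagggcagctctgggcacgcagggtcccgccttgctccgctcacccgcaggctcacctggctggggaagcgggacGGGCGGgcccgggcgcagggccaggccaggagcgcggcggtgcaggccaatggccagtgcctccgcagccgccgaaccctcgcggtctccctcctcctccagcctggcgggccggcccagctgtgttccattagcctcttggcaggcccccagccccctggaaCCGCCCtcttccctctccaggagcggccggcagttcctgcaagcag
Col16a1 had 290, 195 and 153 CPM in wild type and 288, 307, 365 and 605 CPM in Tnc-/-. All 4 Tnc-/- libraries lay above the wild-type mean, and the groups overlapped only because Tnc-/- library 1 was just under wild-type library 1. The means were 212 ± 70.2 and 391 ± 146 CPM, a log2 fold change of 0.88 (SE 0.31) or 1.84-fold. The unadjusted p was 0.0212 and the adjusted p 0.0647 in edgeR, so it did not pass. It did pass in DESeq2 with Benjamini-Hochberg adjustment (0.85, adjusted p = 0.0217), where 32.4% of genes were called. It also passed with no filter (0.95, adjusted p = 0.0458, 26.3% called) and without wild-type library 1 (1.26, adjusted p = 0.00121, 64.2% called). In all 19 other settings tried its value was above 0, but it was 0.59 without Tnc-/- library 4, 0.43 without wild-type libraries 2 and 3, and 0.16 with the level of the receptor genes as a covariate.

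**Figure D2:**
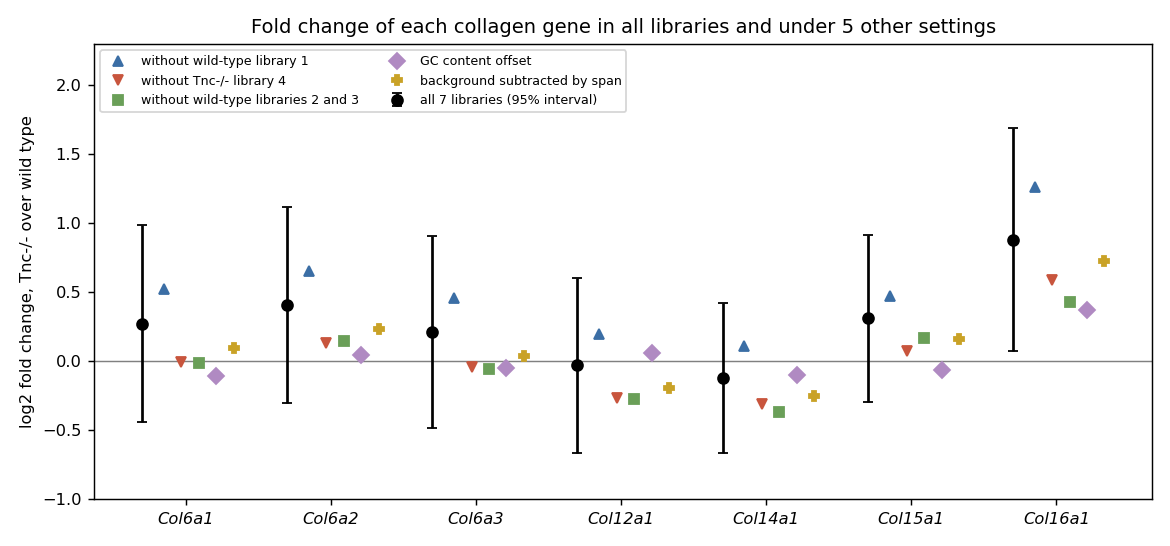
Log2 fold change of each collagen gene, Tnc-/- over wild type, in all 7 libraries (black, with its 95% interval) and in 5 other settings (coloured symbols, no interval). The interval of Col16a1, unadjusted for the number of genes, lies above 0 and those of the other 6 genes span 0, while Col6a1, Col6a3, Col12a1, Col14a1 and Col15a1 change sign in at least 1 setting drawn.

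The intervals show roughly what differences these libraries leave possible. They use fewer degrees of freedom than edgeR's test, which also draws on other genes. They are therefore wider than that test would give. The 95% interval of the log2 fold change, with 5 residual degrees of freedom, ran from -0.44 to 0.99 for Col6a1, the gene with the highest level. For Col14a1 it was the narrowest, from -0.67 to 0.42, and for Col16a1 the widest, from 0.07 to 1.69. On the linear scale, a fall of Col12a1 to 0.631 of its wild-type level and a rise to 1.52 times that level both lay at the edge of its interval. A p that misses the threshold therefore does not show that the genotypes had equal levels.

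Levels of different genes were compared per kb of exon. Averaged over the 7 libraries, Col6a1 had 391 CPM per kb, Col6a2 174, Col6a3 92.0, Col16a1 46.6, Col14a1 45.5, Col15a1 44.9 and Col12a1 42.4. The order Col6a1, Col6a2, Col6a3 and then the other 4 held in 7 of 7 libraries. The step from Col6a1 to Col6a2 was 2.13 to 2.42 times and that from Col6a2 to Col6a3 1.62 to 2.05 times. Among Col16a1, Col14a1, Col15a1 and Col12a1, each neighbour in this order was higher in only 3 or 4 of 7 libraries. No single order held in all libraries. Col16a1 was below Col14a1 in every wild-type library and above it in every Tnc-/- library. Col15a1 stood likewise to Col12a1, narrowly in wild-type library 3 (43.1 against 43.7 CPM per kb). Per kb of coding sequence, Tnc-/- library 3 broke the latter pattern (61.3 against 62.5). Shares of all genes with ratios that did not overlap are given with the pairs below. In wild type Col16a1 was the lowest of all members on this scale, at 31.5 ± 10.4 CPM per kb, and in Tnc-/- it was the fourth highest, at 57.95 ± 21.7.

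**Figure D3:**
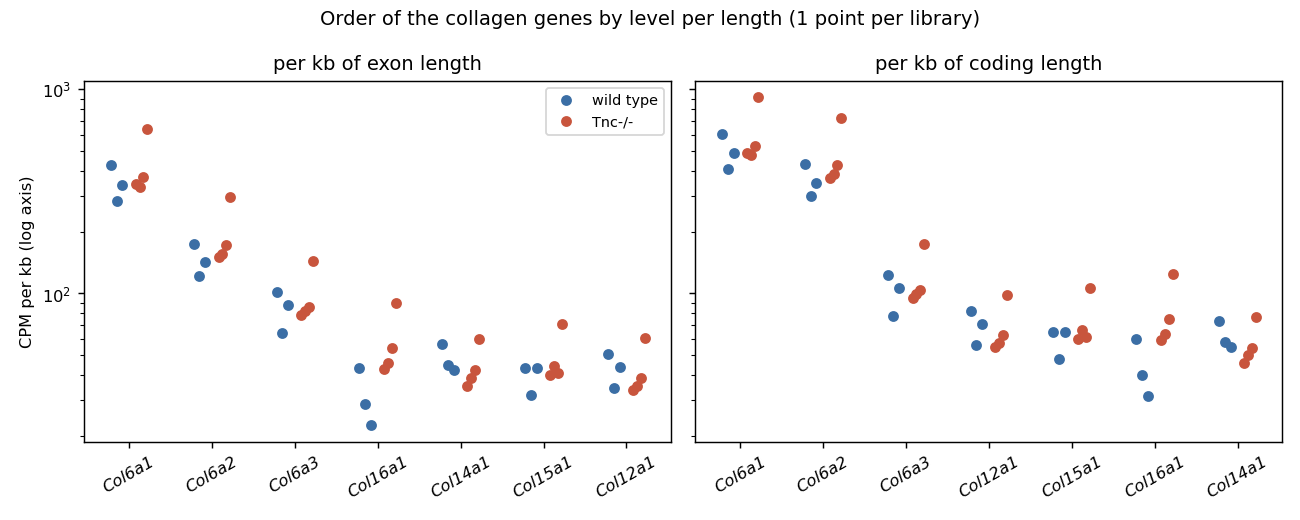
Level (CPM per kb, log axis) of each collagen gene in every library, per exon length on the left and per coding length on the right, wild type in blue and Tnc-/- in red. The 3 collagen VI chains stand in the same order above the other 4 genes in 7 of 7 libraries by either length, while those 4 intermingle.

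The length used moved the distances between the chains of collagen VI but not their order. Per kb of coding sequence Col6a1 had 557 CPM, Col6a2 426 and Col6a3 112, again in this order in 7 of 7 libraries. The step from Col6a1 to Col6a2 was then 1.24 to 1.40 times, since annotated exons of Col6a2 cover 8.33 kb but its coding part 3.40 kb. The step from Col6a2 to Col6a3 was 3.27 to 4.14 times. Although 1 of each chain enters a collagen VI molecule, the RNA level per kb of the α3 chain was thus the lowest of the chains by either length.

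Ratios of counts within a library do not depend on how libraries are scaled, and 6 of them were tested. The ratio of Col6a2 to Col6a1 counts was 0.786, 0.813 and 0.794 in wild type and 0.836, 0.893, 0.889 and 0.879 in Tnc-/-. Every Tnc-/- library lay above every wild-type library, by 0.13 on the log2 scale between means. In an exact two-sided permutation test (35 arrangements of the genotype labels) p was 0.0571, the smallest this test can give with these group sizes, and 0.171 after adjustment over the 6 ratios, so the test could not reach 0.05. As a background, the ratio of counts to Col6a1 did not overlap between genotypes for 13.8% of all genes so compared.

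The other ratio whose groups did not overlap was that of Col12a1 to Col1a1. It was 0.0556, 0.0654 and 0.0654 in wild type and 0.0536, 0.0463, 0.0501 and 0.0499 in Tnc-/-, lower in 4 of 4 Tnc-/- libraries by 0.31 on the log2 scale (exact permutation p = 0.0571, adjusted 0.171). The ratio of counts to Col1a1 did not overlap between genotypes for 12.8% of all genes so compared. With the trend on GC content, described below, removed from the level in each library, the same difference was 0.24, of opposite sign. The remaining ratios overlapped: Col6a3 to Col6a1 differed by -0.045, Col14a1 to Col12a1 by -0.085, Col15a1 to Col6a1 by 0.046 and Col6a1 to Col1a1 by -0.023 on the log2 scale, with exact permutation p-values from 0.514 to 0.914.

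**Figure D4:**
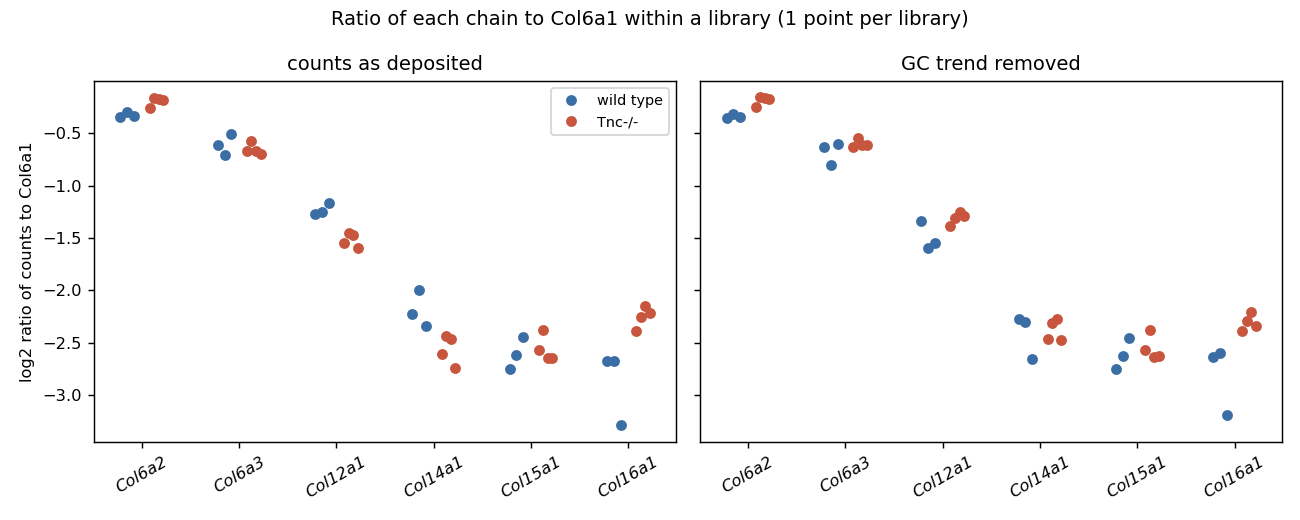
Log2 ratio of the counts of each other collagen gene to those of Col6a1 in every library, with counts as deposited on the left and the GC trend removed on the right, wild type in blue and Tnc-/- in red. Col6a2 and Col16a1 lie higher in every Tnc-/- library in both panels, Col12a1 and Col14a1 lie lower in every Tnc-/- library only on the left, and Col6a3 and Col15a1 overlap in both.

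All 21 pairs among the 7 members were then described, without a test; the pairs share genes and are not independent. Of the 21, 14 did not overlap between genotypes. The background, the share of all genes whose ratio to the member did not overlap, was 13.8% for Col6a1, 18.0% for Col6a2, 13.9% for Col6a3, 15.7% for Col12a1, 23.6% for Col14a1, 19.3% for Col15a1 and 33.5% for Col16a1. Of its 6 pairs, Col6a1 was apart in 4, Col6a2 and Col12a1 in 5, Col6a3 and Col14a1 in 3, Col15a1 in 2 and Col16a1 in 6. Col16a1 was higher in Tnc-/- relative to each of the other 6 members. Its ratio to Col6a1 was 0.156, 0.156 and 0.102 in wild type and 0.192, 0.210, 0.225 and 0.216 in Tnc-/-. Relative to Col14a1 it was 0.732, 0.624 and 0.517 in wild type and 1.17, 1.14, 1.24 and 1.45 in Tnc-/-, a difference of 1.01 on the log2 scale and the largest of the 21. In each of its 6 pairs the ratio of Col16a1 was lowest in wild-type library 3.

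Col12a1 and Col14a1 stood on the other side. The ratio of Col12a1 to Col6a1 was 0.415, 0.420 and 0.446 in wild type and 0.342, 0.366, 0.361 and 0.330 in Tnc-/-, a difference of -0.29 on the log2 scale with every Tnc-/- library lower, although with the GC content offset described below the groups overlapped. The differences were -0.42 for Col12a1 to Col6a2 and -0.38 for Col14a1 to Col6a1, again with no overlap, which likewise ended with that offset. Within Tnc-/-, the SD of the log2 ratio was 0.044 for Col6a2 to Col6a1 and 0.053 for Col6a3 to Col6a1. It was 0.040 for Col12a1 to Col6a3, the smallest of the 21 pairs, so low spread was not a feature of the collagen VI pairs alone. With each library left out in turn, 14 to 17 pairs did not overlap.

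Fold changes differed with the GC content of the transcripts across all genes, and the members followed this in broad groups, with exceptions within them. Among the 17468 tested genes with an annotated transcript, coding or not, the median log2 fold change was -0.35 in the quintile with the lowest GC content. It was 0.43 in the quintile with the highest. In the lowest quintile 36 genes were called higher and 1060 lower, and in the highest 972 were called higher and 246 lower. Among the members, Col16a1 had the highest GC content, 61.4%, above 97.7% of tested genes, and the largest fold change. Col12a1 and Col14a1 had the lowest, 48.3 and 49.7%, and the lowest fold changes, while Col6a1, Col6a2, Col6a3 and Col15a1 had 54.5 to 56.7% and fold changes of 0.21 to 0.41. Of the latter 4, Col6a3 had the least GC and the lowest fold change, but among Col6a2, Col15a1 and Col6a1 the member with more GC had the lower fold change, and Col12a1, with less GC than Col14a1, had the higher value.

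With the GC trend removed from each library, an alternative chosen after the data were seen, 0 of 7 members were called, against 20.3% of the genes tested with this offset, and the spread of the members' values narrowed. The log2 fold change was then 0.37 for Col16a1 (adjusted p = 0.308 in edgeR), and -0.11 to 0.055 for the other 6 (adjusted p from 0.774 to 0.910). The values of Col6a1, Col6a3 and Col15a1 turned to below 0 and that of Col12a1 to above 0. Tnc remained at -3.20 (adjusted p = 2.4e-04). Of the 21 pairs, 5 still did not overlap: Col6a2 to Col6a1, and Col16a1 to Col6a1, Col6a2, Col6a3 and Col14a1. The trend was present within the genotypes too, as the median deviation of the highest GC quintile was -0.11, -0.27 and -0.36 on the log2 scale in wild-type libraries 1 to 3 and 0.10, 0.12, 0.19 and 0.30 in Tnc-/- libraries 1 to 4. Since the sign of the trend separates the genotypes, GC content and genotype cannot be told apart here.

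**Figure D5:**
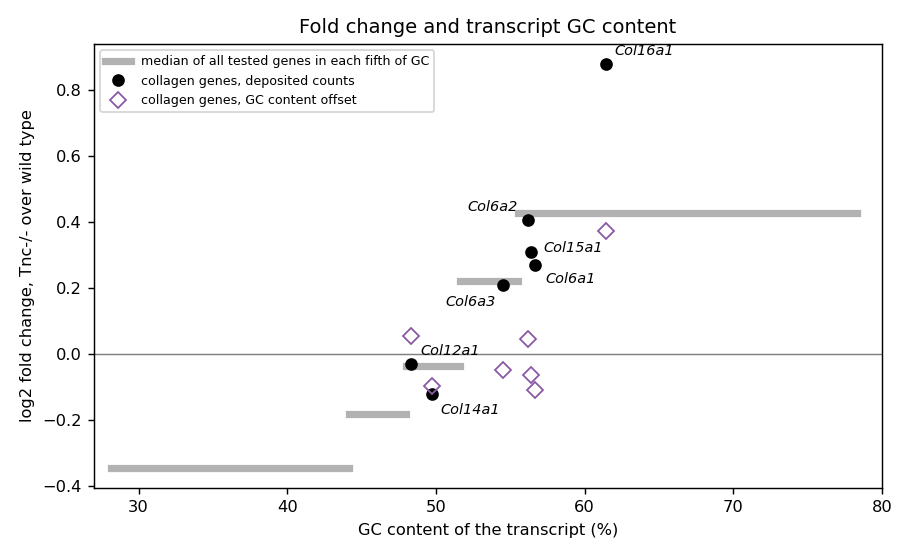
Log2 fold change, Tnc-/- over wild type, against the GC content of the transcript (%), with black points for the collagen genes, open diamonds for the same genes with the GC content offset, and grey bars for the median of all tested genes in each GC quintile. The black points lie higher at high than at low GC content, as the bars do, and with the offset 6 of 7 genes lie between -0.11 and 0.055.

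The signal on receptor genes that marked wild-type libraries 2 and 3 was small beside the members. Spread evenly over gene spans, it came to 0.105 and 0.0748 CPM per kb in these libraries, 0.00599 in wild-type library 1 and 0.00225 to 0.0028 in Tnc-/-. At that rate it would account for 0.131 and 0.0769% of the Col6a1 counts in wild-type libraries 2 and 3. The shares were larger for members with long introns, reaching 6.42 and 4.76% for Col14a1, whose span is 213 kb, and 4.86 and 2.54% for Col15a1. They were at most 0.320% for every member in the remaining libraries. Taking these shares off the counts alone would raise the log2 fold changes by 0.001 (Col6a1) to 0.054 (Col14a1). With the predicted counts subtracted from all genes and the library sizes and TMM factors estimated anew, all 7 values were instead lower than before, with shifts of -0.131 (Col14a1) to -0.178 (Col6a1) on the log2 scale. They were then 0.093 for Col6a1, 0.23 for Col6a2, 0.039 for Col6a3, -0.20 for Col12a1, -0.25 for Col14a1, 0.16 for Col15a1 and 0.73 for Col16a1.

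The genes closest to each member across the 7 libraries were taken from the 8390 tested genes that averaged 20 CPM or more, by the root mean square difference of log2 CPM centred on each gene's mean. Col6a3 was closest to Col6a1 (0.069). Col6a1 was closest to Sulf2 (0.054), a heparan sulfate sulfatase, and to P3h3 (0.056), a member of the prolyl 3-hydroxylase family that acts on collagens, with Col6a3 ranked 3. Col6a2 was closest to P3h3 (0.053) and C1qtnf6 (0.060), with Col6a1 ranked 4. Each of the collagen VI chains thus had another chain of the trimer among its 4 nearest genes.

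Col12a1 was closest to Col3a1 (0.040), a fibril-forming collagen, and Mxra8 (0.056), and its nearest other member was Col6a3 at rank 46. Col14a1 was closest to Ppic (0.065), a cyclophilin, and Rgl1 (0.071), with Col12a1 at rank 56. Col15a1 was closest to Fndc1 (0.080) and Col6a3 (0.095). Col16a1 was closest to Emilin1 (0.169), an elastic fibre glycoprotein, and Chpf2 (0.171), an enzyme of chondroitin synthesis. Col16a1 also had the least close neighbours of the 7, and its nearest other member, Col6a2, ranked 331.

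Of 10 further chains of the collagen VI, FACIT and multiplexin families, 0 were called higher and 3 lower, with a median log2 fold change of -0.06. Of all tested genes 29.0% were called, 10.3% higher and 18.7% lower, so 3 of 10 was near the share over all genes. They were Col6a4, Col6a5 and Col19a1. Col6a5, an alternative α chain of collagen VI, had 19.3, 39.5 and 25.7 CPM in wild type and 8.10, 14.5, 13.4 and 12.1 CPM in Tnc-/-, a log2 fold change of -1.23 (SE 0.29, adjusted p = 0.0160 in edgeR). Every Tnc-/- library lay below every wild-type library, and the receptor rate would account for 24.9 and 26.9% of its counts in wild-type libraries 2 and 3. The call of Col6a5 ended in 6 of 19 settings, among them limma voom (adjusted p = 0.0565) and DESeq2 with Bonferroni adjustment. Its adjusted p in edgeR was 0.0580 without wild-type library 2 and 0.0517 without library 3. Without both, its value was -0.69 (adjusted p = 0.160), and with the receptor level as a covariate it was -0.42 (adjusted p = 0.617).

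Col6a4 and Col19a1 were low except in wild-type libraries 2 and 3. Col6a4, another alternative α chain, had 0.483, 18.7 and 9.72 CPM in wild type and 0.370 to 1.31 CPM in Tnc-/- (log2 fold change -3.70, SE 0.99, adjusted p = 0.0246 in edgeR). Without wild-type libraries 2 and 3 its value was 0.59. Of the 18 other settings that tested it, its sign changed in 2 and its call ended in 10 more, among them limma voom (adjusted p = 0.324), the replicate block (adjusted p = 0.0925), leaving out wild-type library 2 or 3, and leaving out any single Tnc-/- library. Col19a1, a FACIT, had 2.85, 55.8 and 36.0 CPM in wild type and 0.168 to 0.780 CPM in Tnc-/- (-5.84, SE 0.95, adjusted p = 0.00718). Without wild-type libraries 2 and 3 its value was -2.38 (adjusted p = 0.0657) and with the receptor covariate -1.08 (adjusted p = 0.305), and the call also ended with the replicate block (adjusted p = 0.102) and in limma voom (adjusted p = 0.248). At the receptor rate, 54.1 and 72.9% of the Col6a4 counts and 54.9 and 59.7% of the Col19a1 counts of wild-type libraries 2 and 3 would be accounted for. These shares are rough, since the rate predicted more counts than were present in some libraries where the counts were low. It came to 132.3% of the Col6a4 counts in wild-type library 1 and 122.5 to 524.6% of the Col19a1 counts in Tnc-/-. Of the chains not called, Col22a1, a FACIT of the muscle-tendon junction, was at 123 ± 18.4 and 152 ± 22.7 CPM, and Col18a1, the other multiplexin, at 65.2 ± 8.55 and 84.9 ± 25.2 CPM.

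Among 11 fibril-forming collagens, whose fibrils the FACITs decorate, 3 were called higher and 0 lower, against 29.0% of all tested genes called in either direction and 10.3% called higher, with a median log2 fold change of 0.27, beside 0.27 for the 7 members. The 3 were Col5a3 (0.69, adjusted p = 0.0461), Col11a2 (1.20, adjusted p = 0.0193) and Col27a1 (0.86, adjusted p = 0.00954 in edgeR). With the GC content offset their adjusted p-values were 0.465, 0.0664 and 0.0699. Of the 19 other settings, the call of Col5a3 ended in 16, that of Col11a2 in 10 and that of Col27a1 in 4. The abundant chains did not pass: Col1a1 had a log2 fold change of 0.27 (adjusted p = 0.542) and Col3a1 one of -0.011 (adjusted p = 0.981).

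Of 8 receptors of collagen VI and other collagens, 1 was called, lower in Tnc-/-, against 18.7% of all tested genes called lower and 29.0% called in either direction. This was Antxr2, the anthrax toxin receptor that takes up collagen VI, with 117, 147 and 126 CPM in wild type and 71.5, 78.2, 81.0 and 90.1 CPM in Tnc-/-. All 4 Tnc-/- libraries lay below the wild-type libraries (log2 fold change -0.70, adjusted p = 0.00877 in edgeR). Its call ended in 3 of 19 settings. With the GC content offset the value was -0.43 (adjusted p = 0.0601 in edgeR), and with the receptor level as a covariate -0.485 (adjusted p = 0.253). Without wild-type libraries 2 and 3 it was -0.55. The related receptor Antxr1 was at 407 ± 87.4 and 401 ± 94.95 CPM, and Cspg4, the NG2 proteoglycan that binds collagen VI, at 89.5 ± 5.80 and 122 ± 28.4 CPM.

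Of 15 matrix partners of collagens VI, XII and XIV, 2 were called higher and 1 lower, against 10.3 and 18.7% of all tested genes. Tnxb encodes tenascin-X, a relative of Tenascin C that binds collagens XII and XIV, and had 215, 156 and 135 CPM in wild type and 381, 362, 479 and 423 CPM in Tnc-/-. Every Tnc-/- library was above every wild-type library (log2 fold change 1.29, SE 0.20, adjusted p = 0.00670 in edgeR). The call held with the GC content offset, at 0.80 (adjusted p = 0.0126), and ended in 1 of 19 settings, with the receptor level as a covariate (0.77, adjusted p = 0.146). Hspg2, which encodes perlecan, was higher by 1.01 (adjusted p = 0.0126, and 0.0715 with the GC content offset), and Lum, the fibril proteoglycan lumican, lower, at -0.63 (adjusted p = 0.0482, and 0.324 with the offset). The call of Lum ended in 13 of 19 settings and that of Hspg2 in 5.

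Of 20 genes that modify, fold or trim collagen chains, 1 was called, P3h2, a prolyl 3-hydroxylase (log2 fold change -0.99, adjusted p = 0.0411 in edgeR). Of all tested genes 29.0% were called in either direction. The median of the list was 0.16, and P3h3, the gene close to Col6a1 and Col6a2, was at 104 ± 18.0 and 131 ± 42.0 CPM. The call of P3h2 ended in 11 of the 19 other settings and its sign changed in 1 more. Those 11 included leaving out any single Tnc-/- library, limma voom (adjusted p = 0.121) and leaving out wild-type library 2 (-0.52, adjusted p = 0.146).

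Marker lists of the cells a joint holds were read beside the members. Many single-marker calls ended in other settings: of 19 settings, that of Mkx ended in 14, those of Pi16 and Adipoq in 13 each, those of Egfl7 and Ncmap in 12 each (Ncmap also changed sign in 1), that of Vwf in 9, that of Emcn in 8 and that of Notch3 in 6. With the GC content offset Mkx, Pi16, Egfl7, Vwf, Emcn and Notch3 did not pass (edgeR adjusted p from 0.0909 to 0.459). The summed level of 10 fibroblast markers was 2360.0 to 3253 CPM in wild type and 2333 to 3784 CPM in Tnc-/-, with 1 of 10 called, Pi16, higher. The groups overlapped in this sum; of all tested genes 29.0% were called and 35.1% did not overlap. Of 9 tendon markers 8 were tested and 1, Mkx, was called lower, with summed levels of 1925 to 2595 and 2001 to 3189 CPM. Scx, a defining transcription factor of tendon cells, had 0 counts in all 7 libraries, as had Alas2 among the erythroid markers. In Tnc-/- library 4, where every member was highest, the fibroblast, tendon, chondrocyte and macrophage sums were also the highest of the 7 libraries, at 3784, 3189, 2135 and 1307 CPM. Abundant genes carried much of these sums, with Postn at 2443 and Thbs4 at 2289 CPM in this library. Many markers of these lists were highest in another library. They were Pdgfra, Fap, Cd34 and Dpt (fibroblast), Mkx, Egr1, Kera and Chodl (tendon), and Sox9, Matn1, Matn3 and Hapln1 (chondrocyte). Among macrophage markers they were Adgre1, Cd68, Csf1r, Mrc1, Cd163 and Mertk. The part of these cells in the members' levels was not tested.

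The marker sums that did not overlap between genotypes were those of muscle and of marrow or blood cells; of single genes, 35.1% did not overlap, 29.0% were called and 10.3% were called higher. Skeletal muscle markers summed to 25340.0 to 34790.0 CPM in wild type and 36800.0 to 55240.0 CPM in Tnc-/- (1 of 10 called, Myh4, higher). Neutrophil and marrow myeloid markers summed to 2796 to 5824 and 6436 to 10960.0 CPM (6 of 9 called higher, with Camp, S100a9, Ly6g and Ltf having the smallest p), and erythroid markers to 4768 to 9127 and 13410.0 to 26330.0 CPM (6 of 8 tested called higher, led likewise by Ank1, Sptb, Hbb-bs and Hbb-bt). The highest of these sums were in Tnc-/- library 2 for muscle and in Tnc-/- library 1 for both marrow lists, not in library 4. Their part in the members' levels was not tested.

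The other marker lists overlapped between genotypes in their sums. Endothelial markers summed to 681 to 832 CPM in wild type and 685 to 810 CPM in Tnc-/- (Vwf and Egfl7 called higher, Tek and Emcn lower, of 10). Mural cell markers summed to 577 to 801 and 601 to 791 CPM (1 of 8 higher, Notch3), and adipocyte markers to 518 to 842 and 679 to 1112 CPM (2 of 8 higher, Adipoq and Plin4). Macrophage markers summed to 715 to 1216 and 1060.0 to 1307 CPM and chondrocyte markers to 649 to 1426 and 645 to 2135 CPM, with 0 of 9 called in each by edgeR. At an unadjusted p under 0.05 the counts were 0 of 9 and 1 of 9 (Hapln1), and DESeq2 with Benjamini-Hochberg adjustment called 0 and 1, while DESeq2 with Bonferroni adjustment and limma voom called 0 in both lists. The genes with the smallest p were C1qa (log2 fold change 0.60) and Cd163 (0.39) among macrophage markers and Hapln1 (-0.59) and Acan (0.60) among chondrocyte markers. Schwann cell and nerve markers summed to 260.0 to 292 and 289 to 306 CPM (of 7 tested, Mbp called higher and Ncmap lower).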

How the data were processed

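Per the labels' protocols, the libraries were prepared from poly(A)-enriched RNA of whole joints with NEBNext Ultra reagents. The authors deposited raw read counts per gene, 1 table per library. The submitters' processing notes name FastQC 0.11.9, HISAT2 2.2.1, HTSeq 2.0.2, DESeq2 1.38.3 and the builds GRCm39 and mm39, with no role or order; the annotation and strand setting are not given in the sources used here. Rows naming no gene, 5 in each Tnc-/- table (30.1 to 32.7% of listed reads) and 0 in the wild-type tables, were left out.

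Groups follow the labelled genotype. Genes in all files were tested with edgeR 4.0.16 (R 4.3.3; filterByExpr, TMM, robust quasi-likelihood F test, genotype as the 1 term), with Benjamini-Hochberg adjustment at 0.05 over all 17791 genes. P-values measure the spread between 1 library per mouse. Ratios of counts within libraries were compared by exact two-sided permutation tests (SciPy 1.17.1). Lengths, spans, overlaps and GC content (98.2% of tested genes) came from GENCODE M21 (GRCm38), another build than that of the files, so none of its coordinates are given; promoter sequences are from RefSeq. Likeness used log2 of CPM plus 0.5.

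Genes named are the members, Tnc, Col1a1, the 2 nearest genes of each member, and from each of the other 16 lists the called genes where 5 or fewer, otherwise the 4 with the smallest p, or the 2 with the smallest p where none was called. Antxr1, Cspg4, Col3a1, Col18a1, Col22a1, Scx, Alas2 and the markers named for their level in Tnc-/- library 4 were added after their values were seen. The members and lists were chosen with earlier results of these data known. Alternatives were DESeq2 1.42.0 (Benjamini-Hochberg or Bonferroni), limma voom 3.58.1, other scalings and filters, leaving out libraries, the replicate number as a block, and the receptor-gene level as a covariate or subtracted. The description of all 21 pairs and the GC content offset, a robust loess curve per library, were added after the data were seen.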

Additional observations from a re-analysis of the deposited data

Results flagged for a closer look

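Tnc-/- library 4 lay far above the other Tnc-/- libraries for 4 of the 7 collagens. The gap from it to the nearest library, as a share of the range of the 4 Tnc-/- libraries, was 0.878 for the normalised level of Col6a1, 0.843 for Col6a2, 0.894 for Col6a3 and 0.856 for Col15a1, each above Dixon's critical value for 4 samples. Of 13 values tested this way 4 passed, where chance passes about 1 group in 20; the values come from the same libraries and are not independent. Without this library the log2 fold changes of these genes were -0.005, 0.13, -0.043 and 0.073.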

How the results depend on the processing

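The number of genes called, 5159 (64.5% of them lower), was 9423 with DESeq2 and Benjamini-Hochberg adjustment, 1890 with Bonferroni, 1004 with limma voom (27.5% lower), 825 without wild-type libraries 2 and 3 (43.2% lower), 398 with the receptor level as a covariate (51.5% lower), 3154 with the receptor rate subtracted, and 2229 to 14113 with 1 library left out. The share called lower was 82.7% with library totals and 78.5% with the GC content offset. With the replicate number as a block 1932 genes were called (54.3% lower). Same-numbered libraries did not deviate together throughout (r across genes of -0.005, 0.10 and -0.005 for numbers 1, 2 and 3), not every library correlated best with its own number, and the numbers were not taken as pairs.

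Tnc kept its call in all 19 settings, at -3.24 to -2.80 with 1 library left out. Col16a1 kept its direction in all 19 and passed the threshold with DESeq2 and Benjamini-Hochberg adjustment (0.85), with no filter (0.95) and without wild-type library 1, with 0.59 to 1.26 over the libraries left out. The other members changed sign in some settings; the cause was not tested. Without wild-type libraries 2 and 3, with the receptor covariate and with the GC content offset, Col6a1 was -0.011, -0.24 and -0.11 and Col6a3 -0.061, -0.30 and -0.050. Col6a3 was -0.027 with library totals and -0.015 with the block, Col6a2 -0.076 with the covariate, Col15a1 -0.064 with the GC content offset, and Col12a1 0.045 with no filter and 0.055 with the GC content offset. With 1 library left out the ranges were -0.005 to 0.53 (Col6a1), 0.13 to 0.65 (Col6a2), -0.043 to 0.46 (Col6a3), -0.27 to 0.20 (Col12a1), -0.31 to 0.11 (Col14a1) and 0.073 to 0.47 (Col15a1).

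Of the log2 ratios, Col6a3 to Col6a1 was 0.077 with the GC content offset (-0.096 to 0.008 with 1 library left out). Col6a1 to Col1a1 was 0.093 without wild-type libraries 2 and 3 and 0.062 with the offset (-0.08 to 0.035), and Col12a1 to Col1a1 0.24 with the offset (-0.39 to -0.27). Col14a1 to Col12a1 ran from -0.19 to 0.02, Col15a1 to Col6a1 from -0.027 to 0.13 and Col6a2 to Col6a1 from 0.12 to 0.15. The pairs not overlapping, 14 of 21, were 5 with the offset and 14 to 17 with 1 library left out. Per kb of coding sequence the levels were 557 (Col6a1), 426 (Col6a2), 68.8 (Col12a1), 58.8 (Col14a1) and 67.2 CPM (Col15a1). With the receptor covariate Col6a4 was 2.02, P3h2 0.16 and Ncmap 0.51, and without wild-type libraries 2 and 3 Col6a4 was 0.59. Where 1 wild-type library was left, it was assumed to vary like the other libraries. With 3 and 4 libraries the two-sided exact permutation test used here could not go below 0.0571, and depth did not limit the members, which had at least 2512 counts in every library.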
